A study of Bos taurus with 16 samples.

Results

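The genes described here make, take up, store and export cholesterol in cells aspirated from the ovarian follicle of dairy cows. The list was given for this work and holds 29 genes: 17 enzymes of synthesis, 4 genes of the sterol sensor that controls them, 3 genes of uptake and movement, and 5 genes of storage and efflux. Of these, 28 occurred among the 20629 features of the files, and STARD4 was not analysed here. Of the 28 genes, 26 passed the filter on low counts over all libraries, and the transporters ABCA1 and ABCG1 did not.

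Cells build cholesterol from acetyl-CoA by way of mevalonate, squalene and lanosterol. When sterol in the endoplasmic reticulum falls, SCAP escorts the transcription factors encoded by SREBF1 and SREBF2 to the Golgi for cleavage, and the cleaved factors switch on the genes of synthesis, while INSIG1 holds SCAP back when sterol is plentiful. Granulosa cells, which line the follicle and make oestradiol, use cholesterol as the precursor of steroid hormones, and macrophages take up lipoproteins and return cholesterol to the outside through ABC transporters and apolipoprotein E.

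Poly(A) RNA of Holstein cows in lactation was sequenced in 16 libraries, of which 9 are called control and 7 are called treatment. The protocols state that the contents of the dominant follicle were drawn off through the vagina at 63 ± 3 days after calving and the granulosa cells were spun down and washed. All cows had been given a gonadotropin-releasing hormone and then prostaglandin F2α to synchronise ovulation, and cows with metritis had received the antibiotic ceftiofur. The series title asks whether effects on the granulosa transcriptome last after uterine disease has resolved, but the labels do not say what treatment stands for. The tissue field of every library reads blood. HBB, a haemoglobin gene, reached at most 42.7 CPM (counts per 1000000 transcript counts), and whether any leukocyte RNA came from blood was not tested. The labels do not tie libraries to cows, and p-values then reflect only how these libraries differ among themselves, which may be technical.

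The libraries were of 2 kinds, which the labels do not name. The kinds were separated by INHA, the inhibin subunit made by granulosa cells, with more than 1000 CPM for granulosa-rich and under 200 CPM for leukocyte-rich libraries. The 9 granulosa-rich libraries (control 2, 3, 4, 7 and 8 and treatment 4, 5, 6 and 7, by replicate number) had 1759 to 3041 CPM of INHA. The 7 leukocyte-rich libraries (control 1, 5, 6 and 9 and treatment 1, 2 and 3) had 0.404 to 111 CPM, the highest being treatment 1. Summed CPM of 12 granulosa markers ranged from 44945 to 150009 in the first kind and from 173 to 5515 in the second. These markers include INHA itself, which defined the kinds. Among them CYP19A1, NR5A2 and GATM overlapped between the kinds, GATM at 7.62 to 112 and 28.9 to 125 CPM. For 9 measured pan-leukocyte markers the sums were 15.2 to 1073 and 5522 to 7862, and for 11 measured monocyte and macrophage markers 24.9 to 1726 and 5514 to 13156. The leukocyte-rich libraries therefore go against the granulosa cells that the protocols describe, and every result is given by kind. Theca and stroma marker sums were 178 to 2945 CPM in granulosa-rich libraries. Leukocyte-rich treatment 1 and 2 had 7795 and 10975 CPM of them, above their pan-leukocyte sums of 6594 and 5522 CPM. Treatment 3 had 400 CPM, and the leukocyte-rich controls had 525 to 2264 CPM. The part of stromal cells in differences between the labels was not tested. Files held 8111862 to 14348753 counts, so that 3 counts, the limit a count of 0 allows, corresponded to between 0.212 and 0.375 CPM. This limit covers counting error only.

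The genes of synthesis and their feedback control were mostly more abundant in granulosa-rich than in leukocyte-rich libraries. Of the 26 genes that passed the filter, 10 (38.5%) were higher in all 9 granulosa-rich libraries than in any leukocyte-rich one, while 6.1% of the 9653 features tested were. These were HMGCS1, IDI1, FDPS, FDFT1, SQLE, CYP51A1, TM7SF2, MSMO1, INSIG1 and SREBF2, with ratios of the medians from 4.68 to 21.2. In the opposite direction 1 of the 26 genes (3.85%), NPC2, did not overlap, beside 11.6% of all features. NR1H3 joined NPC2 when control 6 or treatment 4 was left out, making 2 genes. The median ratio of granulosa-rich over leukocyte-rich libraries was 2.60 for the 26 genes and 0.883 for all features (log2 values 1.38 and -0.18). Features with a median of 0 in either kind have no ratio and are left out of such values. With TMM scaling, which adjusts for composition, these log2 medians were 1.57 and -0.03. The kinds were defined from the data, so no test accompanies these differences. In bulk RNA, fewer cells of a type and less RNA per cell cannot be told apart.

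**Figure D1:**
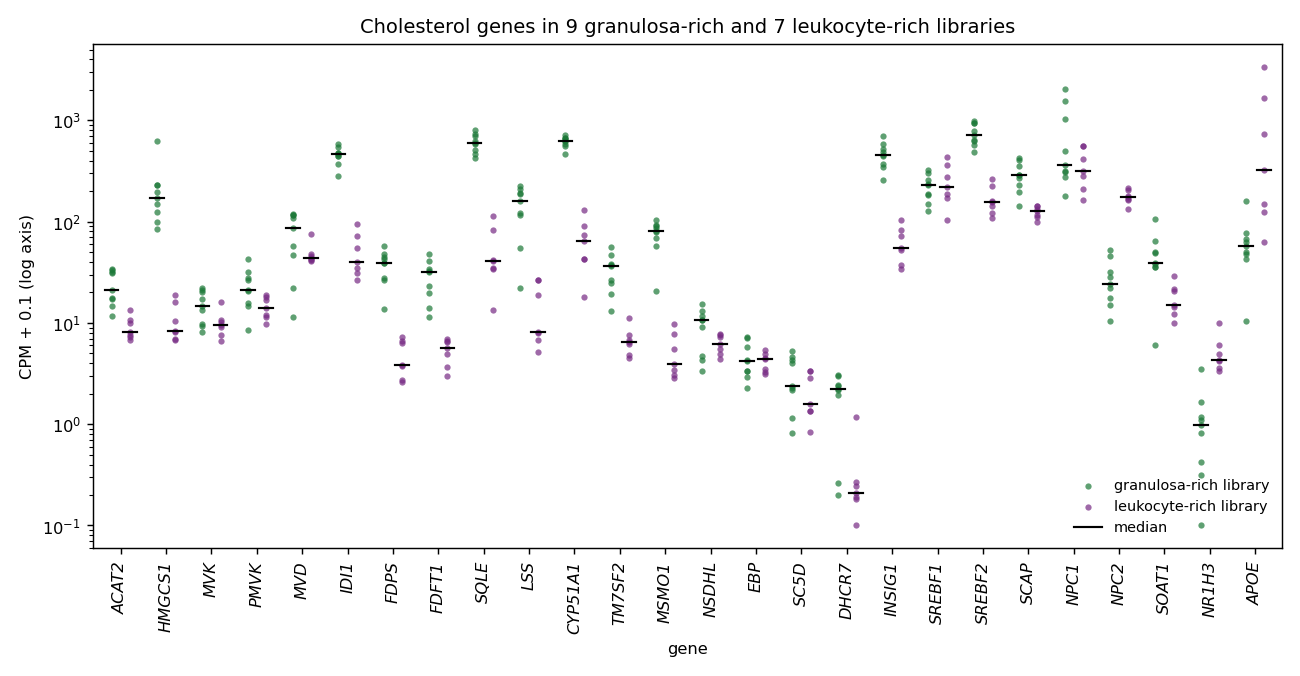
CPM plus an offset of 0.1 (log axis) of the 26 genes that passed the filter on low counts in each of 16 libraries, with green points for 9 granulosa-rich libraries, purple points for 7 leukocyte-rich libraries and black bars for the medians. HMGCS1, SQLE and CYP51A1 separate fully with the granulosa-rich libraries above, NPC2 separates with the leukocyte-rich libraries above, and SREBF1, EBP and NPC1 overlap.

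No difference between treatment and control libraries was called for any of these genes at an adjusted p under 0.05. In the granulosa-rich libraries 0 of 26 tested genes were called by edgeR's quasi-likelihood test, beside 0% of 9272 features, and 0 of the 26 had an unadjusted p under 0.05 (433 of all features did). The fitted log2 fold changes, treatment minus control, were above 0 for 12 and below 0 for 14 genes, with a median of -0.04 against 0.04 for all features. In the leukocyte-rich libraries 0 of 26 tested genes (with ABCG1 and without DHCR7) were called, beside 0% of 9912 features, with 0 of the 26 and 259 of all features at an unadjusted p under 0.05. Here 16 estimates were above 0 and 10 below, with a median of 0.10 against 0.01 for all features. DESeq2 and limma-voom also called 0 of these genes in either kind, but DESeq2 gave no adjusted p for 3 of them in granulosa-rich libraries (HMGCS1, DHCR7 and NR1H3). DESeq2 called 27 of all features in the granulosa-rich libraries.

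Over all 16 libraries, in which the kinds are mixed, edgeR called 0 of 26 genes, beside 0% of 9653 features (0 and 163 at an unadjusted p under 0.05). DESeq2 and limma-voom called 0 features there. The difference of the treatment effect between the kinds, tested as an interaction in edgeR, was called for 0 of 27 genes, beside 0% of 11468 features (0 and 609 at an unadjusted p under 0.05). Its lowest unadjusted p among these genes was 0.0829, for MSMO1 (adjusted p = 0.921). A difference that was not called is not shown to be absent, since the standard errors of these genes within a kind reached 1.28 on the log2 scale.

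Complete separation of the labels was rare. Among the granulosa-rich libraries, 0 of the 26 genes had all treatment libraries above all controls, beside 1.18% of all features, and 0 had all controls above, beside 0.55%. Among the leukocyte-rich libraries 0 genes had treatment above without overlap, beside 1.99% of all features, and 1 gene, MVK, had control above, beside 1.85%.

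**Figure D2:**
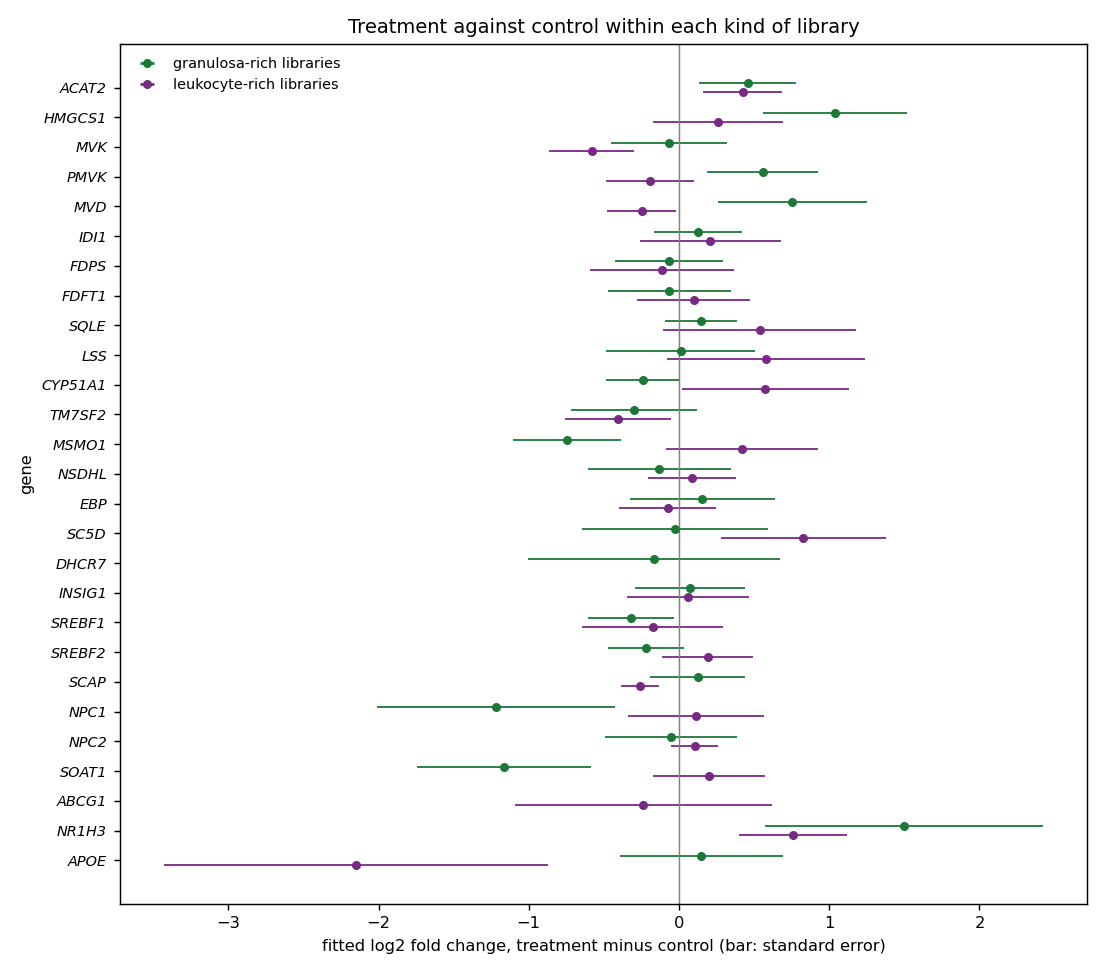
Fitted log2 fold change, treatment minus control, with its standard error as the bar, for each gene tested in the 9 granulosa-rich libraries (green) and in the 7 leukocyte-rich libraries (purple). NPC1 at -1.22 and SOAT1 at -1.17 lie lowest among the green points, and APOE at -2.15 lies lowest among the purple points with the widest bar.

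The mevalonate steps turn acetyl-CoA into farnesyl pyrophosphate. All 7 of these enzymes had a higher median in granulosa-rich libraries, and 3 of the 7 did not overlap, beside 6.1% of all features. Of all 9653 features, 4085 had a ratio of medians above 1, not counting features with a median of 0 in either kind. HMGCS1, the synthase that condenses acetyl-CoA and acetoacetyl-CoA, was at 231, 172, 84.4, 98.0 and 124 CPM in granulosa-rich control 2, 3, 4, 7 and 8 and at 196, 624, 230 and 151 CPM in treatment 4, 5, 6 and 7. In the leukocyte-rich libraries it was at 6.71, 8.26, 16.0 and 8.12 CPM in control 1, 5, 6 and 9 and at 18.7, 10.2 and 6.83 CPM in treatment 1, 2 and 3. The 2 kinds were far apart, with a ratio of medians of 20.8, whereas the labels overlapped within each kind. Its estimate of 1.04 ± 0.48 (SE) in the granulosa-rich libraries had the lowest p of the 26 genes there (edgeR, unadjusted p = 0.0543, adjusted p = 0.983), and it was 0.20 without treatment 5. In the leukocyte-rich libraries the estimate was 0.26 ± 0.43.

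ACAT2, which joins a pair of acetyl-CoA molecules, was at 21.2, 30.9, 14.6, 11.6 and 17.0 CPM in granulosa-rich control 2, 3, 4, 7 and 8 and at 33.6, 17.7, 31.5 and 33.5 CPM in treatment 4 to 7. In the leukocyte-rich libraries it was at 7.44, 7.19, 9.93 and 6.75 CPM in control 1, 5, 6 and 9 and at 10.6, 13.2 and 8.10 CPM in treatment 1 to 3. Treatment 5 was the low one among the granulosa-rich treatment libraries, the labels overlapped, and the ratio of medians between kinds was 2.62. The estimates for treatment were 0.46 ± 0.32 (SE) and 0.42 ± 0.26 in the 2 kinds.

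MVK phosphorylates mevalonate. Granulosa-rich control 2, 3, 4, 7 and 8 had 22.1, 20.9, 9.19, 7.95 and 13.3 CPM of it, and treatment 4 to 7 had 19.9, 14.4, 17.1 and 9.68 CPM. The leukocyte-rich libraries held 15.8, 10.5, 10.0 and 9.37 CPM in control 1, 5, 6 and 9 and 9.01, 7.54 and 6.58 CPM in treatment 1 to 3. In the leukocyte-rich libraries every treatment value lay below every control value, by a gap as narrow as that between 9.01 and 9.37 CPM, while in the granulosa-rich libraries the labels overlapped. The leukocyte-rich estimate was -0.58 ± 0.28 (SE; edgeR, unadjusted p = 0.0746, adjusted p = 0.9996), and the granulosa-rich one was -0.07 ± 0.39.

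PMVK and MVD carry out the next phosphorylation and the decarboxylation to isopentenyl pyrophosphate. PMVK was at 21.2, 32.0, 14.5, 8.51 and 15.8 CPM in granulosa-rich control 2, 3, 4, 7 and 8 and at 27.7, 20.3, 26.6 and 42.4 CPM in treatment 4 to 7. Of the leukocyte-rich libraries, control 1, 5, 6 and 9 had 14.0, 9.70, 18.8 and 18.0 CPM and treatment 1 to 3 had 16.7, 12.0 and 11.2 CPM. Labels and kinds both overlapped, and the estimates were 0.56 ± 0.37 (SE) in granulosa-rich and -0.19 ± 0.29 in leukocyte-rich libraries.

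MVD was at 86.4, 115, 22.1, 11.4 and 46.6 CPM in granulosa-rich control 2, 3, 4, 7 and 8 and at 108, 57.1, 118 and 117 CPM in treatment 4 to 7. MVD in the leukocyte-rich libraries was at 44.1, 74.7, 42.3 and 45.3 CPM in control 1, 5, 6 and 9 and at 48.4, 40.7 and 41.3 CPM in treatment 1 to 3. Control 4 and 7 were low enough to fall under every leukocyte-rich library, so that MVD varied more among granulosa-rich controls than between the kinds (ratio of medians 1.96). Its estimates were 0.75 ± 0.50 (SE) and -0.25 ± 0.23. The remaining mevalonate enzymes were IDI1, the isomerase, at 283 to 590 CPM in granulosa-rich and 26.5 to 94.0 CPM in leukocyte-rich libraries, and FDPS, which builds farnesyl pyrophosphate, at 13.5 to 58.1 and 2.54 to 7.23 CPM. Neither overlapped between the kinds, with ratios of medians of 11.6 and 10.5.

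The squalene and sterol steps run from farnesyl pyrophosphate to cholesterol. Of these 10 enzymes, 9 had a higher median in granulosa-rich libraries and 5 did not overlap, beside the same 4085 of 9653 and 6.1% of all features. EBP was the exception in plain CPM, and with TMM scaling or DESeq2's size factors all 10 ratios were above 1. FDFT1, which joins farnesyl units into squalene, was at 11.3 to 47.6 CPM in granulosa-rich and 2.87 to 6.78 CPM in leukocyte-rich libraries. SQLE, the squalene epoxidase, was at 429 to 805 and 13.2 to 114 CPM, with a ratio of medians of 14.7. LSS, the cyclase that forms lanosterol, had a ratio of 19.7, but treatment 5 at 22.1 CPM lay below leukocyte-rich control 6 at 26.3 and treatment 1 at 26.6 CPM. The other 8 granulosa-rich libraries had 54.4 CPM of LSS or more.

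CYP51A1, which demethylates lanosterol, varied little across granulosa-rich libraries. It was at 714, 674, 655, 626 and 463 CPM in control 2, 3, 4, 7 and 8 and at 559, 582, 668 and 630 CPM in treatment 4 to 7. Its values in leukocyte-rich control 1, 5, 6 and 9 were 18.1, 42.7, 91.2 and 65.0 CPM and those in treatment 1 to 3 were 129, 74.1 and 42.3 CPM. The kinds did not overlap (ratio of medians 9.70), and the labels overlapped in both. The estimates for treatment were -0.24 ± 0.25 (SE) in granulosa-rich and 0.58 ± 0.56 in leukocyte-rich libraries.

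MSMO1, the oxidase of methyl groups on the sterol ring, had the highest ratio of medians of the 26 genes, 21.2. Its values were 105, 87.1, 93.3, 81.4 and 68.7 CPM in granulosa-rich control 2, 3, 4, 7 and 8 and 79.7, 20.5, 90.7 and 57.7 CPM in treatment 4 to 7. The leukocyte-rich libraries held 3.83, 3.32, 7.67 and 2.75 CPM in control 1, 5, 6 and 9 and 9.68, 5.49 and 2.95 CPM in treatment 1 to 3. Treatment 5 and 7 were the lowest granulosa-rich libraries, and the labels overlapped. The granulosa-rich estimate was -0.75 ± 0.36 (SE; edgeR, unadjusted p = 0.064, adjusted p = 0.983), and the leukocyte-rich one was 0.42 ± 0.51.

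TM7SF2, a sterol reductase, was at 26.5, 56.0, 36.7, 19.4 and 37.7 CPM in granulosa-rich control 2, 3, 4, 7 and 8 and at 13.1, 38.2, 46.4 and 24.8 CPM in treatment 4 to 7. Of the leukocyte-rich libraries, control 1, 5, 6 and 9 had 4.72, 11.1, 7.43 and 6.62 CPM and treatment 1 to 3 had 6.34, 4.42 and 6.08 CPM. Granulosa-rich treatment 4 at 13.1 CPM was only just above leukocyte-rich control 5 at 11.1 CPM, and the labels overlapped in both kinds. The estimates were -0.30 ± 0.42 (SE) and -0.41 ± 0.35.

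The kinds overlapped for the late enzymes EBP, SC5D and NSDHL, and DHCR7 was near the limit of detection. EBP, a sterol isomerase, was at 4.20, 5.73, 4.10, 3.24 and 2.16 CPM in granulosa-rich control 2, 3, 4, 7 and 8 and at 7.03, 2.85, 7.12 and 3.23 CPM in treatment 4 to 7. In leukocyte-rich control 1, 5, 6 and 9 it was at 4.86, 4.31, 4.44 and 3.00 CPM and in treatment 1 to 3 at 5.34, 3.44 and 3.21 CPM. The ratio of medians was 0.951, and the estimates for treatment were 0.16 ± 0.48 (SE) and -0.08 ± 0.32.

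SC5D, a sterol desaturase, was at 3.97, 2.31, 2.19, 1.05 and 4.53 CPM in granulosa-rich control 2, 3, 4, 7 and 8 and at 2.09, 0.712, 5.24 and 4.25 CPM in treatment 4 to 7. Its values in leukocyte-rich control 1, 5, 6 and 9 were 0.737, 1.26, 2.75 and 1.25 CPM and those in treatment 1 to 3 were 3.23, 1.47 and 3.29 CPM. Kinds and labels overlapped, with estimates of -0.03 ± 0.62 (SE) and 0.83 ± 0.55. SC5D reads were spread over several accessions, the most counted of which held 46.2%.

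NSDHL, which removes methyl groups from the sterol ring, ranged from 3.25 to 15.2 CPM in granulosa-rich and from 4.30 to 7.62 CPM in leukocyte-rich libraries. DHCR7, the reductase of the last step of one branch, had 188 counts in the granulosa-rich and 20 counts in the leukocyte-rich libraries. In 7 granulosa-rich libraries it lay between 1.83 and 2.97 CPM, and in control 7 and treatment 5 at 0.162 and 0.102 CPM, below the limit a count of 0 allows. Leukocyte-rich libraries were at 0.169 CPM or less, apart from treatment 2 at 1.07 CPM, and no test was made there. The fitted changes of IDI1, FDPS, FDFT1, SQLE, LSS and NSDHL lay between -0.13 (NSDHL) and 0.14 (SQLE) in granulosa-rich libraries and between -0.11 (FDPS) and 0.58 (LSS) in leukocyte-rich ones.

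Among the genes of the sterol sensor, INSIG1 and SREBF2 were higher in every granulosa-rich library than in any leukocyte-rich one, whereas SREBF1 and SCAP overlapped. INSIG1 was at 582, 344, 459, 482 and 257 CPM in granulosa-rich control 2, 3, 4, 7 and 8 and at 526, 700, 450 and 370 CPM in treatment 4 to 7. The leukocyte-rich libraries held 82.9, 34.2, 54.5 and 71.8 CPM in control 1, 5, 6 and 9 and 103, 52.6 and 37.3 CPM in treatment 1 to 3. The lowest granulosa-rich library, control 8, was still above the highest leukocyte-rich one, treatment 1, and the ratio of medians was 8.42. Within each kind the labels overlapped, with estimates of 0.07 ± 0.37 (SE) and 0.06 ± 0.41.

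SREBF2, the factor most closely tied to cholesterol genes, was at 987, 945, 791, 565 and 487 CPM in granulosa-rich control 2, 3, 4, 7 and 8 and at 725, 634, 953 and 621 CPM in treatment 4 to 7. In leukocyte-rich control 1, 5, 6 and 9 it was at 108, 143, 159 and 222 CPM and in treatment 1 to 3 at 267, 155 and 122 CPM. Its ratio of medians was 4.68, the labels overlapped, and the estimates were -0.22 ± 0.26 (SE) and 0.19 ± 0.30. SREBF1, whose product acts more on fatty acid genes, behaved otherwise.

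SREBF1 was at 300, 182, 324, 149 and 187 CPM in granulosa-rich control 2, 3, 4, 7 and 8 and at 256, 128, 229 and 233 CPM in treatment 4 to 7. Of the leukocyte-rich libraries, control 1, 5, 6 and 9 had 361, 188, 222 and 278 CPM and treatment 1 to 3 had 172, 436 and 104 CPM. The highest and the lowest of all 16 values were both from leukocyte-rich treatment libraries, and the ratio of medians was 1.03. Estimates for treatment were -0.32 ± 0.29 (SE) and -0.17 ± 0.47.

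SCAP, the escort of both factors, was at 358, 267, 288, 232 and 141 CPM in granulosa-rich control 2, 3, 4, 7 and 8 and at 405, 197, 286 and 421 CPM in treatment 4 to 7. Its values in leukocyte-rich control 1, 5, 6 and 9 were 117, 143, 133 and 144 CPM and those in treatment 1 to 3 were 112, 126 and 98.4 CPM. Control 8 at 141 CPM was the granulosa-rich library that reached into the leukocyte-rich range, and the ratio of medians was 2.27. The leukocyte-rich estimate of -0.26 ± 0.12 (SE) had a small error but did not pass (edgeR, unadjusted p = 0.0718, adjusted p = 0.9996). The granulosa-rich estimate was 0.12 ± 0.32.

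NPC1 and NPC2 hand over cholesterol from lipoproteins inside lysosomes, NPC2 as the soluble carrier and NPC1 as the membrane protein that receives it, and their messages were distributed differently. NPC2 was at 14.8, 45.7, 23.9, 17.7 and 28.2 CPM in granulosa-rich control 2, 3, 4, 7 and 8 and at 51.9, 10.3, 31.5 and 21.9 CPM in treatment 4 to 7. The leukocyte-rich libraries held 167, 174, 162 and 180 CPM in control 1, 5, 6 and 9 and 206, 216 and 133 CPM in treatment 1 to 3. All leukocyte-rich libraries were above all granulosa-rich ones, with a ratio of medians of 7.26, and the labels overlapped (estimates -0.05 ± 0.44 and 0.10 ± 0.15, SE). The granulosa-rich libraries with the most NPC2, treatment 4 and control 3, were also those with the most of the monocyte marker CD14, at 332 and 221 CPM, and with the highest monocyte and macrophage sums, at 1726 and 722 CPM. Treatment 5 was next in both, with CD14 at 80.5 CPM and a sum of 562 CPM, yet had the least NPC2 of all, 10.3 CPM. The part of monocytes and macrophages in these NPC2 values was not tested.

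NPC1 was at 366, 274, 2032, 1537 and 309 CPM in granulosa-rich control 2, 3, 4, 7 and 8 and at 504, 180, 318 and 1028 CPM in treatment 4 to 7. In leukocyte-rich control 1, 5, 6 and 9 it was at 281, 211, 556 and 320 CPM and in treatment 1 to 3 at 417, 553 and 165 CPM. Control 4, control 7 and treatment 7 stood above the other 6 granulosa-rich libraries and above all leukocyte-rich ones, while the medians of the kinds were close (ratio 1.15). The granulosa-rich estimate was -1.22 ± 0.79 (SE; edgeR, unadjusted p = 0.154, adjusted p = 0.983). It was -1.85 without treatment 7, -0.77 without control 4, -0.79 without control 7 and -0.74 with limma-voom. The leukocyte-rich estimate was 0.11 ± 0.45.

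A gene outside the list, SCARB1, which takes up cholesterol esters from high-density lipoprotein, was high in the same 3 granulosa-rich libraries, a pattern chosen after the values were seen. SCARB1 was at 469, 696 and 1639 CPM in control 4, control 7 and treatment 7 and at 55.2 to 83.5 CPM in the other 6. SOAT1 was highest in the same 3 libraries as well. CYP17A1, a marker of theca cells, was at 700, 378 and 736 CPM in these 3 libraries, at 339 and 484 CPM in control 2 and 8, and at 37.7 CPM or less in the remaining 4. The theca and stroma marker sums of the 3 libraries, at 824, 524 and 979 CPM, lay within the range of the others, 178 to 2945 CPM. These sums also hold collagen genes and so do not measure theca cells alone. Control 3, for example, had a sum of 2300 CPM with CYP17A1 at 27.0 CPM. Treatment 7 also had the lowest granulosa marker sum of its kind, 44945 CPM against 100670 CPM or more in the other granulosa-rich libraries. Its CYP19A1 was at 276 CPM (others 8439 to 28576) and its FSHR at 110 CPM (others 361 to 543). The part of theca cells, or of this lower granulosa marker RNA, in the NPC1 values was not tested.

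**Figure D3:**
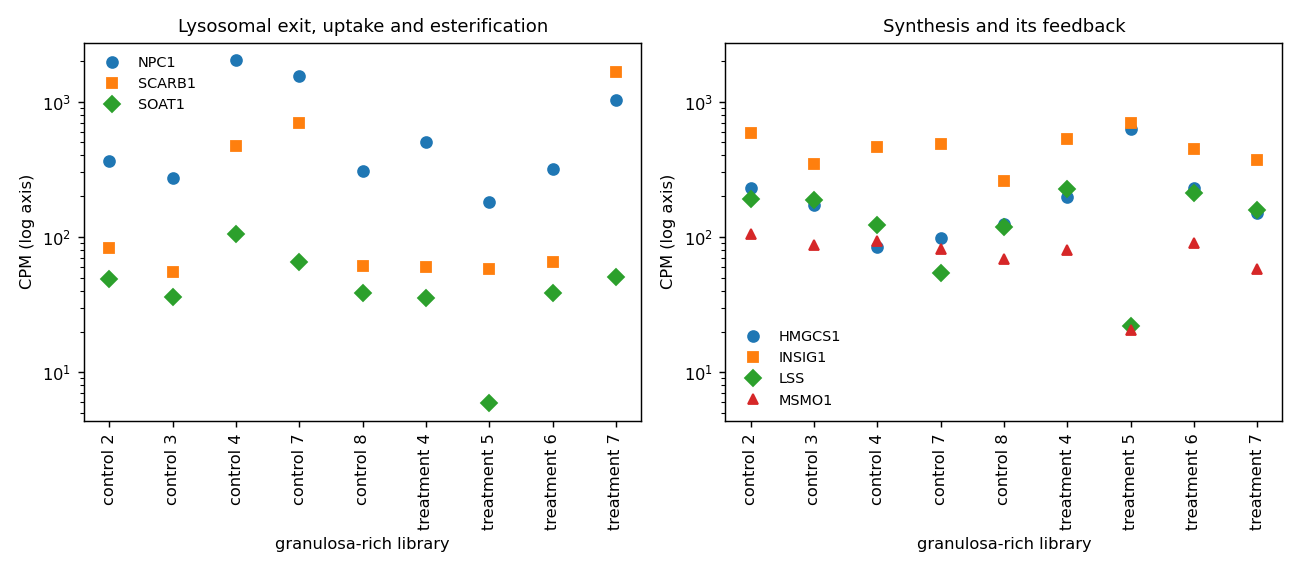
CPM (log axis) of NPC1, SCARB1 and SOAT1 (left) and of HMGCS1, INSIG1, LSS and MSMO1 (right) in each of the 9 granulosa-rich libraries. On the left, control 4, control 7 and treatment 7 are highest for all 3 genes, and on the right treatment 5 has the highest HMGCS1 and INSIG1 and the lowest LSS and MSMO1.

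For storage and efflux, the esterifying enzyme had a higher median in granulosa-rich libraries, and the genes of the liver X receptor route had higher medians in leukocyte-rich ones. SOAT1, which esterifies cholesterol for storage in droplets, was at 49.3, 35.9, 105, 64.9 and 38.6 CPM in granulosa-rich control 2, 3, 4, 7 and 8 and at 35.3, 5.90, 38.5 and 50.6 CPM in treatment 4 to 7. Of the leukocyte-rich libraries, control 1, 5, 6 and 9 had 9.88, 14.9, 12.0 and 29.1 CPM and treatment 1 to 3 had 20.5, 21.6 and 14.4 CPM. Treatment 5 alone brought the granulosa-rich range into the leukocyte-rich one, and the ratio of medians was 2.59. Its granulosa-rich estimate was -1.17 ± 0.58 (SE; edgeR, unadjusted p = 0.0706, adjusted p = 0.983), and the leukocyte-rich one was 0.20 ± 0.37.

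APOE, the apolipoprotein that carries cholesterol away from macrophages, was at 42.9, 57.9, 63.1, 47.6 and 68.0 CPM in granulosa-rich control 2, 3, 4, 7 and 8 and at 161, 10.4, 50.2 and 76.5 CPM in treatment 4 to 7. APOE in the leukocyte-rich libraries was at 1659, 324, 124 and 3374 CPM in control 1, 5, 6 and 9 and at 148, 726 and 63.5 CPM in treatment 1 to 3. The median was 5.60-fold higher in leukocyte-rich libraries, but their values spanned a wide range and the kinds overlapped. Control 1 and 9 held the highest values, and the labels overlapped. The leukocyte-rich estimate was -2.15 ± 1.28 (SE; edgeR, adjusted p = 0.9996), and it was -1.25 without control 9 and -3.67 without treatment 2. The leukocyte-rich library with the highest monocyte and macrophage marker sum, treatment 3 at 13156 CPM, had the lowest APOE of that kind. By CD14 alone it was below control 6, at 3873 against 4031 CPM. The part of monocytes and macrophages in the APOE values was not tested. In granulosa-rich libraries the APOE estimate was 0.15 ± 0.54, and it was -0.50 without treatment 4.

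NR1H3, which encodes the liver X receptor alpha, was at 0.873, 0, 0.990, 0.324 and 0.216 CPM in granulosa-rich control 2, 3, 4, 7 and 8 and at 3.41, 0.712, 1.09 and 1.57 CPM in treatment 4 to 7. Its values in leukocyte-rich control 1, 5, 6 and 9 were 4.20, 4.85, 3.23 and 3.50 CPM and those in treatment 1 to 3 were 4.11, 10.0 and 5.99 CPM. The median was 4.81-fold higher in leukocyte-rich libraries, and treatment 4, which had the most CD14 of its kind, was the granulosa-rich library that reached into their range. Estimates for treatment were above 0 in both kinds and did not pass, at 1.50 ± 0.93 (SE) and 0.76 ± 0.36 (edgeR, unadjusted p = 0.0699 for the second, adjusted p = 0.9996). The granulosa-rich values rest on 100 counts in all, with control 3 and 8 below the limit a count of 0 allows. Depth therefore limits both the first estimate and the ratio. The labels overlapped in both kinds.

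The ABC transporters were barely counted. ABCA1, which exports cholesterol to apolipoprotein A-I, had 21 counts in all 16 libraries, 20 of them in leukocyte-rich ones. It was at 0 in 8 granulosa-rich libraries and at 0.0787 CPM in treatment 7. The leukocyte-rich libraries held 0.221, 0.269, 0.0808 and 0.500 CPM in control 1, 5, 6 and 9 and 0, 0.573 and 0.169 CPM in treatment 1 to 3. These levels were around the limit that a count of 0 allows, so no ratio is given. ABCG1, which exports cholesterol to high-density lipoprotein, was at 0 in 5 of the 9 granulosa-rich libraries but at 5.73 CPM in control 3 and 2.05 CPM in control 8, and at 0.334 to 3.32 CPM in leukocyte-rich libraries.

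A wider list of 44 cholesterol and lipid genes gave the surroundings of these results. Of 39 present in the files, 29 passed the filter over all libraries. Without overlap, 7 of the 29 were higher in granulosa-rich libraries, beside 6.1% of all features, among them SCD (the stearoyl-CoA desaturase, ratio of medians 58.9), CYP11A1 (which starts steroid synthesis from cholesterol, 84.8), LRPAP1 (2.21), SCARB1 (1.88) and MBTPS2 (a protease that cleaves the sterol factors, 1.82). In leukocyte-rich libraries 6 of the 29 were higher without overlap, beside 11.6% of all features, among them the lysosomal lipase LIPA (22.6-fold), the scavenger receptor MSR1 (28.9-fold), CYP27A1 (9.37-fold) and LPCAT3 (2.57-fold), with VLDLR and OLR1. No difference between treatment and control was called at an adjusted p under 0.05 in any of the 26 tested in granulosa-rich or the 29 tested in leukocyte-rich libraries by edgeR. The lowest unadjusted p of this list in granulosa-rich libraries was that of APOA1 at -1.92 ± 0.71 (SE; edgeR, unadjusted p = 0.0208, adjusted p = 0.983). In leukocyte-rich libraries PLTP, a phospholipid transfer protein, was at -2.51 ± 1.02 (SE; edgeR, unadjusted p = 0.0427, adjusted p = 0.9996).

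Single libraries shaped much of the variation within each kind. Treatment 5 was the lowest of the 9 granulosa-rich libraries for 11 of 26 genes and the highest for 4. It was highest for HMGCS1, IDI1, SQLE and INSIG1 and lowest for FDPS, LSS, MSMO1, NSDHL, SC5D, DHCR7, SREBF1, NPC1, NPC2, SOAT1 and APOE. It also had the fewest detected features of all libraries, 11395 against 11803 to 15323 in the other 15, and the part of that in its low values was not tested. Control 7 was lowest for 5 and control 8 for 6 of the 26 genes. The matching shares over all features were not computed, so these counts are not shown to be particular to these genes.

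Among leukocyte-rich libraries, treatment 1 was the highest for 10 of 26 genes and for 8 of 16 tested enzymes, among them SQLE at 114, CYP51A1 at 129 and IDI1 at 94.0 CPM. Treatment 1 was also the leukocyte-rich library with the most granulosa marker RNA, with CYP19A1, the aromatase, at 1027 CPM and a granulosa marker sum of 5515 CPM, against 173 to 353 CPM in the other 6. The part of granulosa cells in its enzyme values was not tested. Here too the share over all features was not computed.

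**Figure D4:**
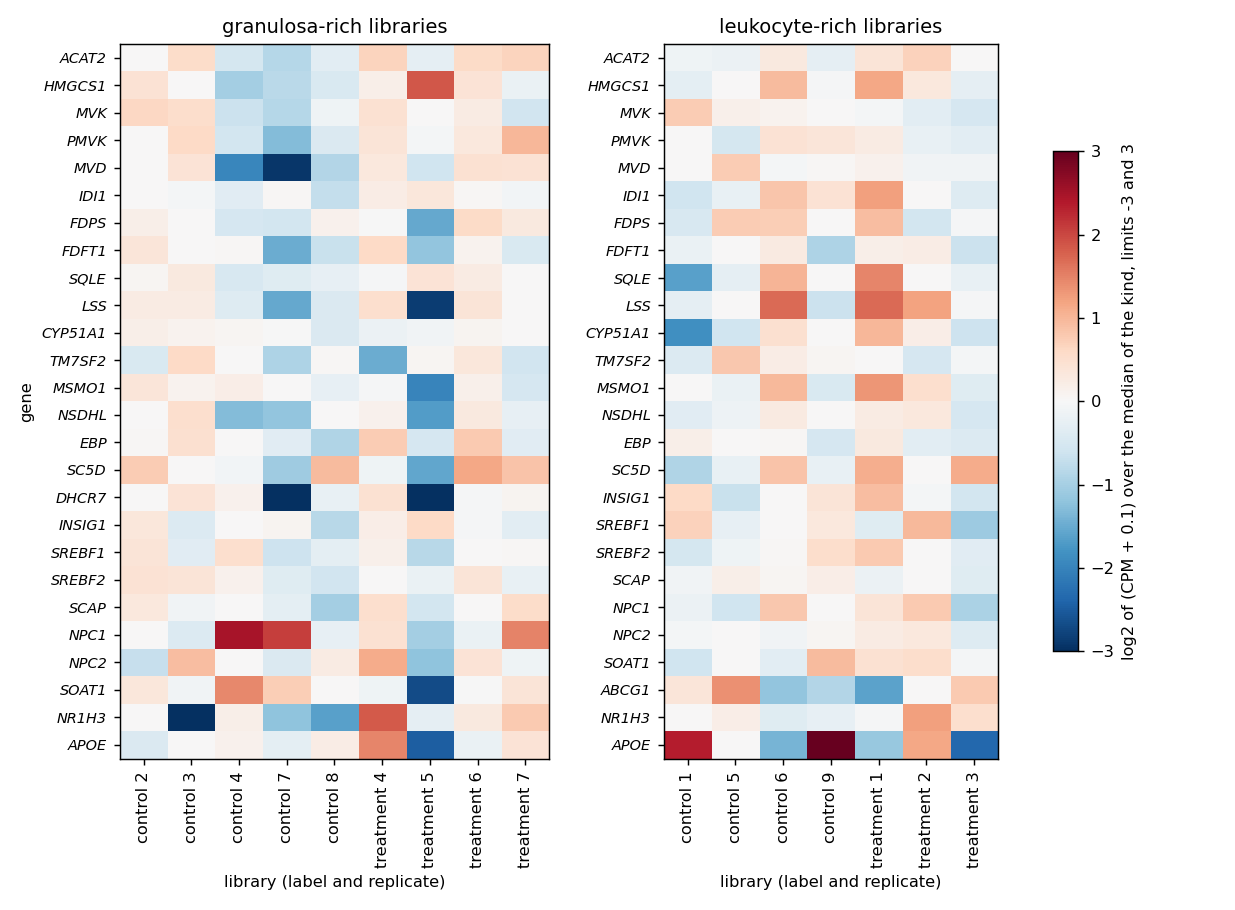
Log2 of (CPM + 0.1) over the median of the kind, for each gene tested in that kind (rows) and each library (columns, label and replicate), with red above and blue below the median and colours limited at 3 in either direction. Treatment 5 holds many of the blue cells among granulosa-rich libraries, NPC1 is red in control 4, control 7 and treatment 7, and APOE is the row with the strongest contrasts among leukocyte-rich libraries.

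Whether the enzymes varied together with INSIG1, a target of the same sterol factors, was examined within each kind. Over 33 relations (17 enzymes in 9 and 16 enzymes in 7 libraries) none passed at an adjusted p under 0.05. Pearson's r with log2 CPM of INSIG1 was above 0 for 7 of 17 enzymes in granulosa-rich libraries, with a median of -0.11. It was above 0 for 12 of 16 in leukocyte-rich libraries, with a median of 0.21. Without control 5 and treatment 1, the leukocyte-rich libraries farthest from the median of INSIG1, it was above 0 for 6 of 16, with a median of -0.09. The same step in granulosa-rich libraries left 6 of 17 above 0, with a median of -0.09. With no library left out, the highest r was that of IDI1 in granulosa-rich libraries, with r = 0.82 (exact permutation p = 0.00734, adjusted p = 0.242 over the 33 relations) and Spearman's rho = 0.77 (exact permutation p = 0.0214, adjusted p = 0.706). Without control 8 and treatment 5, the libraries farthest from the median of INSIG1, r was 0.33 in plain CPM, so on that scale the relation rested on those libraries. With TMM-scaled CPM, chosen after the data were seen, this relation was the 1 of 33 that passed, with r = 0.92 and rho = 0.92 (exact permutation, adjusted p = 0.00546 and 0.0433), and r was 0.83 without those 2 libraries. Values of 1 library share its depth and its mixture of cells.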

How the data were processed

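Per the labels' protocols, RNA with an integrity number of 7 or more was used, 200 ng of it went into poly(A) selection, and the library kit, run with 12 cycles of amplification, keeps no strand, so reads of overlapping or antisense genes are mixed. The tools cutadapt, Bowtie2 and SAMtools are named in the submitters' processing notes, without versions. The counting tool, the genome build and the rule for reads shared between transcripts are not stated in what was used here, which leaves genes with near-identical copies uncertain.

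The authors deposited 1 file per library with whole-number read counts for each RefSeq accession, not scaled in any way. An accession without a line was taken as 0. Of 27306 accessions, 133 were genomic records with 0.71 to 1.92% of a library's counts, and these were dropped. Names, and no coordinates, came from the RefSeq gene table of ARS-UCD2.0: with versions ignored it matched 18973 of 27173 transcript accessions, holding 96.3% of the transcript counts. Counts of a gene's accessions were summed (12 of the 28 genes had more than 1), and CPM were taken over transcript counts. The closest pair of libraries had a correlation of log2 CPM of 0.953, so no libraries were merged as duplicates. CPM were not divided by transcript length, so levels are not compared between genes.

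The genes, the gene lists, the kinds of library and the tests were chosen with earlier results of these data known. Each comparison of treatment with control was a quasi-likelihood test in edgeR 4.0.16 (limma 3.58.1, R 4.3.3, robust) over all features that passed filterByExpr by group, scaled by TMM (factors 0.614 to 1.14), without covariates. Adjusted p-values are Benjamini-Hochberg values over all features tested, and the threshold was 0.05. The standard error (SE) is the size of the log2 fold change over the root of the F statistic. Correlations used log2 CPM (prior count 1) with two-sided exact permutation (numpy 2.4.6, pandas 2.3.3). The fit was tried on simulated data.

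By rule, every library's value is given for, in each role, the 2 genes with the lowest p in each kind and those with the highest and lowest ratio of medians, and for HMGCS1, INSIG1, SREBF2, ABCA1 and APOE. Some genes of the wider list are not reported here. Alternatives were other scalings and filters, DESeq2 1.42.0, limma-voom, the most counted accession alone, a threshold of 0.1, a replicate block, the kind as covariate and each library left out. The TMM-scaled correlations and the leave-one-out fits of the interaction were added after the data were seen.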

Additional observations from a re-analysis of the deposited data

Results flagged for a closer look

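In groups of 4 or 5 libraries, the highest or lowest library was marked by its gap to the nearest other library, in log2 CPM (prior count 1). The mark was set where the gap took up more of the group's range than Dixon's 95% critical value allows (0.829 for 4 and 0.71 for 5 libraries). Of 78 groups tested, 8 were marked. Chance marks about 1 in 20 of independent groups, but these groups are genes measured in the same libraries. The 8 marks are therefore not read as an excess, and no share over all features is given. Treatment 5 accounts for 6 of them, all among the 4 granulosa-rich treatment libraries and all as the lowest. It was at 17.7 CPM of ACAT2 (other libraries 31.5 to 33.6), 57.1 CPM of MVD (108 to 118), 22.1 CPM of LSS (159 to 227), 0.102 CPM of DHCR7 (2.08 to 2.97), 128 CPM of SREBF1 (229 to 256) and 5.90 CPM of SOAT1 (35.3 to 50.6). Among the 5 granulosa-rich control libraries, control 7 was the lowest for DHCR7 at 0.162 CPM (1.83 to 2.86). Among the 4 leukocyte-rich control libraries, control 5 was the highest for MVD at 74.7 CPM (42.3 to 45.3).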

How the results depend on the processing

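No gene of the list that had an adjusted p was called under any alternative run for any of the 4 comparisons of treatment (in granulosa-rich libraries DESeq2 gave none for 3). DESeq2 called 27 features, none of them in the list, among granulosa-rich libraries, and the other alternatives for that comparison called 0. The cause was not tested. The count of genes higher in granulosa-rich libraries was 13 with TMM scaling or DESeq2's size factors (824 and 769 of all 9653 features, against 589 in plain CPM) and 10 to 12 with 1 library left out. That of genes higher in leukocyte-rich libraries was 2 with DESeq2's size factors and 1 to 2 with 1 library left out. With TMM-scaled CPM, 1 relation to INSIG1 passed.

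Replicate numbers recur across labels. Of 7 pairs, 3 had a correlation of deviations above 0.1 (range -0.605 to 0.605). Those 3, replicates 1, 4 and 7, were the pairs whose libraries were of the same kind. The deviations were taken from the mean of each label over both kinds, so the check cannot tell pairing from kind. The labels do not tie libraries to cows, and the numbers were not taken to pair the samples. With the replicate block edgeR called 0 features over all libraries and 0 among granulosa-rich libraries. Among granulosa-rich libraries only replicates 4 and 7 occur under both labels. The blocked treatment estimate there rests on these replicates alone, so its 0 calls say little. Leukocyte-rich libraries, which share only replicate 1, were not fitted with the block. Under the block, and so from replicates 4 and 7 alone, granulosa-rich estimates changed sign for MVK (0.18), EBP (-0.13), SC5D (0.44), INSIG1 (-0.62) and NPC2 (0.19).

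Sign changes were counted for the 19 genes in each kind whose every value is given, not for the others. With library size alone, MVK (0.057), SC5D (0.13) and NPC2 (0.15) changed sign in granulosa-rich libraries, where the median of all features moved from 0.04 to 0.19. With limma-voom, APOE did (-0.24). With 1 library left out, granulosa-rich estimates that changed sign ranged from -0.17 to 0.15 for MVK, -0.37 to 0.27 for SC5D, -0.25 to 0.29 for INSIG1, -0.44 to 0.19 for NPC2, -0.021 to 0.31 for EBP, -0.056 to 0.24 for SCAP and -0.50 to 0.50 for APOE. Leukocyte-rich ones ranged from -0.31 to 0.037 for EBP, -0.92 to 0.15 for SREBF1, -0.43 to 0.29 for INSIG1, -0.24 to 0.46 for NPC1, -0.19 to 0.61 for HMGCS1, -0.071 to 0.83 for MSMO1 and -0.17 to 0.38 for SREBF2. In all of these the cause was not tested. Depth limits ABCA1, ABCG1 and DHCR7, whose counts in many libraries were at or under 3. It also limits NR1H3 in granulosa-rich libraries, where control 3 and 8 were under 3 counts.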

Other observations

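STAR, which carries cholesterol into mitochondria for steroid synthesis, overlapped between the kinds, at 11.4 to 291 CPM in granulosa-rich and 9.34 to 270 CPM in leukocyte-rich libraries. CYP11A1, the enzyme that acts on that cholesterol, was at 2635 to 6329 CPM and 2.70 to 256 CPM. The scavenger receptor CD36 was at 0 to 33.1 CPM in granulosa-rich and 6.33 to 132 CPM in leukocyte-rich libraries. PLTP was at 156, 64.1 and 44.8 CPM in leukocyte-rich control 9, 5 and 1 and at 3.39 to 12.7 CPM in the other 4, and APOE was highest in control 9 and 1. These genes of the wider list were picked after their values were seen.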
